A study of Homo sapiens with 5 samples.

Results

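Ribosome biogenesis was described here through 41 genes for nucleolar rRNA processing and ribosome assembly, matched by symbol among the 20030 gene rows of RNA sequencing tables from HCT116, a human colorectal cancer cell line. The genes were taken for their function, and all 41 were found. HCT116 cells received siRNA against the transcription factor SP1 (1 library), siRNA against the related factor SP3 (1 library), both siRNAs (1 library), or were labelled as controls (2 libraries, control 1 and control 2). Small interfering RNAs (siRNAs) direct the cell to cut transcripts that match their sequence. Total RNA was extracted with Trizol. The siRNA sequences, their amount, the hours of treatment, what the control cells were given, and whether the 2 control libraries came from separate cultures are not stated. With 1 library per knockdown, no knockdown has a replicate check. A p-value measures a difference against the spread between the 2 controls, drawn mostly from genes of similar level. That spread may be technical.

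In the nucleolus, RNA polymerase I makes a long precursor RNA that is modified, folded and cut into the rRNAs of the small and large ribosomal subunits. Box C/D snoRNPs, which are guide RNAs held by a set of core proteins, direct methylation of the precursor. The small-subunit processome assembles on the first part of the precursor and carries the early cuts, late factors finish the small subunit in the nucleolus and cytoplasm, and a separate set of factors builds the large subunit. Rapidly dividing cells such as those of colorectal cancers make many ribosomes, and MYC is a known activator of many of these genes. SP1 and SP3 are zinc finger factors that bind the same GC-rich sequence, the GC box. The 41 genes were placed in 4 roles, with 6 in the box C/D snoRNP and nucleolar scaffold, 15 in the small-subunit processome, 5 in late small-subunit maturation and 15 in large-subunit assembly.

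Levels are FPKM, fragments scaled to the length of the transcript and to the counted fragments of the library. The libraries held between 14567453 and 15841580 counted reads as estimated from the FPKM steps, and the scarcest of the 41 genes in any library rested on an estimated 98 reads (RRS1, control 2). SP1 stood at 15.8 FPKM in the SP1 siRNA library, 27.5 in the SP3 siRNA library and 16.1 with both siRNAs, against 36.6 and 37.2 in the controls. SP3 stood at 14.3, 5.42 and 6.67 FPKM in the same 3 libraries, against 13.3 and 13.0 in the controls. Each siRNA library was thus low for its own target, and the SP3 siRNA library was also lower for SP1, at 74.5% of the control mean. Of 9 epithelial markers, 7 reached 1 FPKM in every library, whereas VIL1 was at 0 in the 3 knockdowns and CDH17 at 0 in control 1. The knockdown and control libraries also differed in leukocyte transcripts. Of 10 leukocyte markers, only CD68 reached 1 FPKM in each knockdown, against 7 in each control, and their sum without CD68 was 0.715 to 1.58 FPKM in the knockdowns, against 23.0 and 24.9 FPKM in the controls. TYROBP, CD3E and MS4A1 were at 0 in all 3 knockdowns. This difference runs with every comparison against the controls below, and its part in them was not tested. Of 8 stromal and endothelial markers, only COL1A1 reached 1 FPKM, in every library.

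Promoter windows from RefSeq (250 bases before to 50 after the gene start, GRCh38.p14) were found for 33 of the 41 genes, and not for BOP1, DDX18, DDX49, NOLC1, NOP58, RRP12, RRP1B and RRS1. A GC box, searched as GGGCGG on either strand, was present in 24 of the 33 windows (72.7%), against 72.4% of the windows of 9273 tested genes and 44.6% of all 27305 RefSeq windows. An E-box, the site of MYC and its partner MAX, searched as CACGTG, which reads the same on both strands, was present in 13 of the 33 (39.4%), against 10.3% of tested genes and 7.43% of all windows. The GC content was alike, with a median of 64% in the 33 windows and 65.7% in those of tested genes. The 6 windows below belong to the genes with the 2 largest falls and the largest rise against the controls in each knockdown, among genes with a window. Capitals mark GC boxes (GGGCGG, or CCGCCC on the other strand) and E-boxes (CACGTG), and each window reads along the gene's strand. An E-box and a GC box can share a base, which occurred in 0 of the 33 windows.
TSR1, chr17:2336408-2336707, minus strand: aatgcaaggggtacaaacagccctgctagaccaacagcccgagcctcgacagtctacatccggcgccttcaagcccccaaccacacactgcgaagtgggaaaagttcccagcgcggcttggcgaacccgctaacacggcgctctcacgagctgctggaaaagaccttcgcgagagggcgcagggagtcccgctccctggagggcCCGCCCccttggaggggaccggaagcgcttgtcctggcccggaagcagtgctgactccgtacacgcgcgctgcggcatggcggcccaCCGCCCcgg
RRP9, chr3:51941855-51942154, minus strand: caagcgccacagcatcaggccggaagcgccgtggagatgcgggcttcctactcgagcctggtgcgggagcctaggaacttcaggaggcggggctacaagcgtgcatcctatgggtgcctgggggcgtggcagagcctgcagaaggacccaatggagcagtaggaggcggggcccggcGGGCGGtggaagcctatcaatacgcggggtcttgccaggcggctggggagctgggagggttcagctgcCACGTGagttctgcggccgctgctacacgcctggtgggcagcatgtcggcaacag
NOP56, chr20:2652382-2652681, plus strand: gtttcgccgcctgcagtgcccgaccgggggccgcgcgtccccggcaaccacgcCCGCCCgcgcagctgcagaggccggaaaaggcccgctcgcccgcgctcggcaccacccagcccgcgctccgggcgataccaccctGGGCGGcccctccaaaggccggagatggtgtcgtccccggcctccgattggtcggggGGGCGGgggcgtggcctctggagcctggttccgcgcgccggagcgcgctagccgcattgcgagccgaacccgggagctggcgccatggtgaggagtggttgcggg
NPM1, chr5:171387599-171387898, plus strand: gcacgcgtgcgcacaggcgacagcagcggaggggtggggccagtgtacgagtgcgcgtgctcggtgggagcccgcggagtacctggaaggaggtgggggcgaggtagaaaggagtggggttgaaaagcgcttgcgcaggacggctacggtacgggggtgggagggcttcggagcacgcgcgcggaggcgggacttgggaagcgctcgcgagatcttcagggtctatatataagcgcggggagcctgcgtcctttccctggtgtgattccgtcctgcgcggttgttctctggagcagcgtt
NIP7, chr16:69339522-69339821, plus strand: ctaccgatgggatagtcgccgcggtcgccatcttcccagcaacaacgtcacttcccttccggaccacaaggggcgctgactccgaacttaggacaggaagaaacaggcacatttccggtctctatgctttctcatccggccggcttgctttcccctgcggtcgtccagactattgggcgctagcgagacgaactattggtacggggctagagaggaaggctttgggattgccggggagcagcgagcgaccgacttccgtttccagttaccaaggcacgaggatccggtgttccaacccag
UTP18, chr17:51260296-51260595, plus strand: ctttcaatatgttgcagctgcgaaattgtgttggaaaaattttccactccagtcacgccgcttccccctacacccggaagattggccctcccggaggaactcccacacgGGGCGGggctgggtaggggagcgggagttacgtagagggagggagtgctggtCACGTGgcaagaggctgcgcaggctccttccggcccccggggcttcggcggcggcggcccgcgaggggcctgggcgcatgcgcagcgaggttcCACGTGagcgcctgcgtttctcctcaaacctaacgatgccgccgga

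Of the 3 windows shown for falls, NOP56 held 3 GC boxes, TSR1 held 2, and RRP9 held 1 GC box and 1 E-box. Of the 3 shown for rises, UTP18 held 1 GC box and 2 E-boxes, and the NPM1 and NIP7 windows held neither motif as spelled. A match is a description of the letters and not a binding site, and the absence of a match says only that these letters are not in the window.

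All 41 genes reached 1 FPKM in at least 1 library, the minimum for a test. Their levels differed widely. NPM1, which encodes nucleophosmin, an abundant chaperone of the nucleolus, was the most abundant in every library, at 932 FPKM with SP1 siRNA, 542 with SP3 siRNA and 653 with both, against 512 and 519 FPKM in the controls. The scarcest gene was UTP15 in the SP1 siRNA library, at 1.88 FPKM, and UTP20 in the other four, at 1.27 to 1.63 FPKM. The 41 genes summed to 2222 FPKM with SP1 siRNA, 1754 with SP3 siRNA and 1766 with both, against 1899 and 1874 FPKM in the controls. Without NPM1 the sums were 1289, 1212 and 1112 FPKM, against 1386 and 1356 FPKM in the controls, so the high sum after SP1 siRNA was that of NPM1. The controls resembled each other, since none of the 41 genes lay 1.5-fold apart between them and the difference of control 2 from control 1 ran from -0.25 to 0.30 on the log2(FPKM + 1) scale. In bulk RNA, fewer cells expressing a gene and less RNA per cell cannot be told apart.

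**Figure D1:**
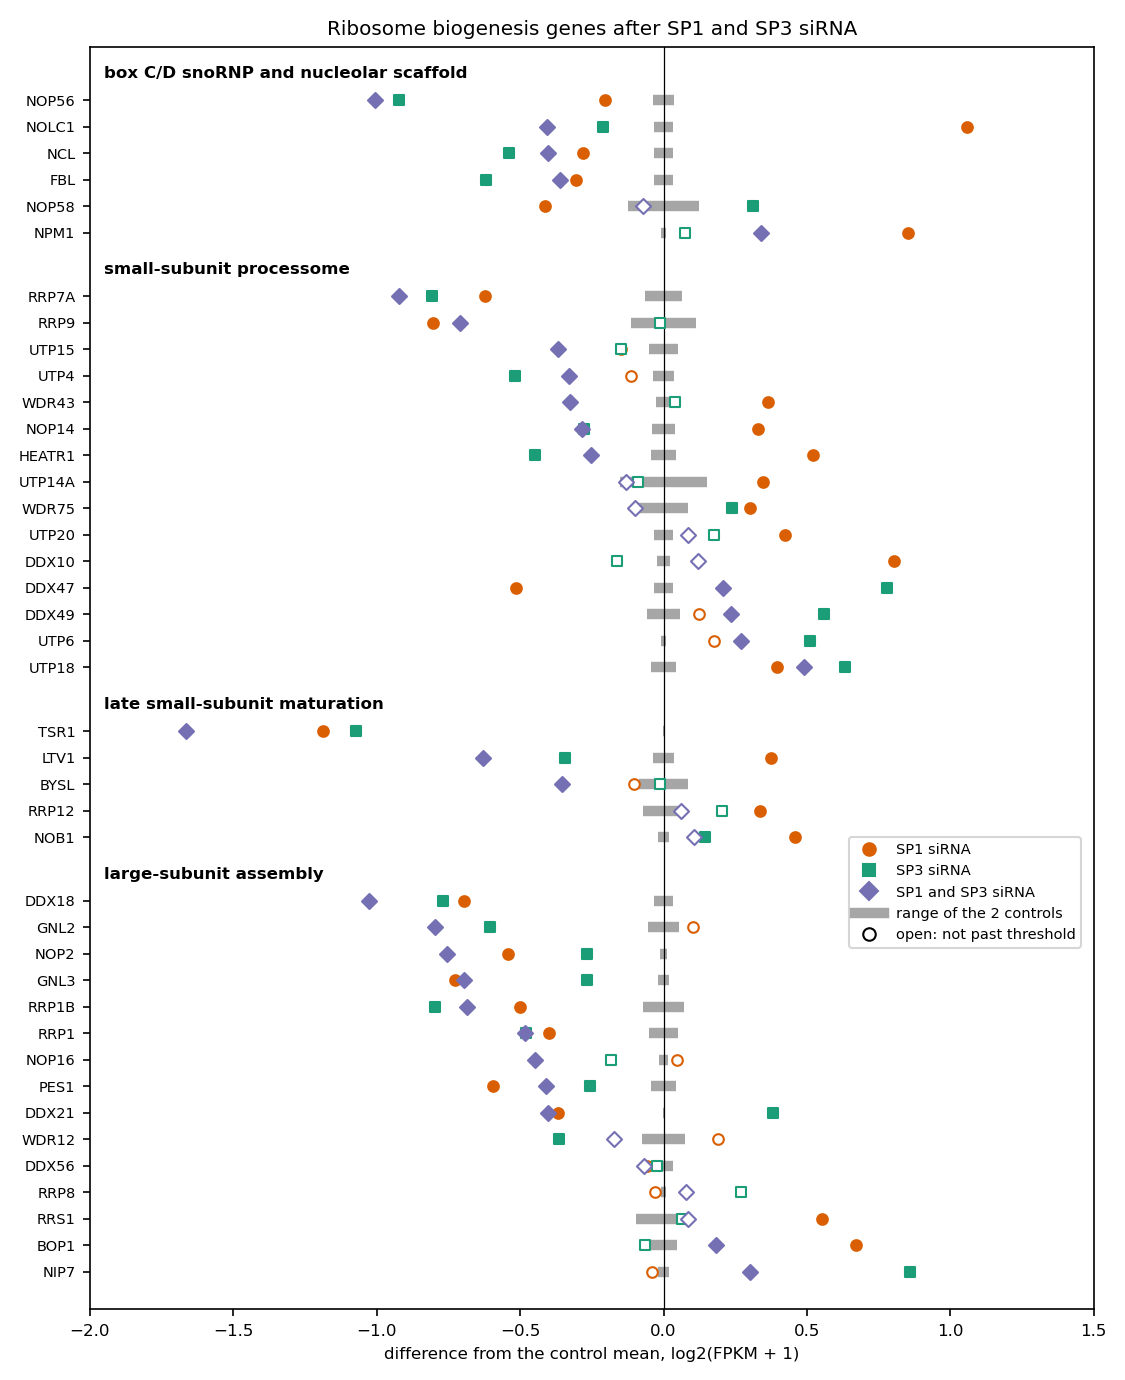
Difference of each of the 41 genes from the control mean on the log2(FPKM + 1) scale, with 1 point per knockdown library, the genes sorted by role and, within a role, by the difference with both siRNAs. Grey bars span the 2 controls, filled points passed an adjusted p of 0.05 in limma, and TSR1 lies farthest to the left in all 3 knockdowns, at -1.19 with SP1 siRNA, -1.07 with SP3 siRNA and -1.66 with both.

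SP1 siRNA left as many of the genes higher as lower. Against the controls, 15 of the 41 were higher and 15 were lower in limma (36.6% each way), and 11 did not pass, where 36.5% of all 11728 tested genes were higher and 28.8% lower. The members' median difference was -0.03, against 0.06 for all tested genes, both on the log2(FPKM + 1) scale. With median-ratio scaling of the libraries, which shifted the median of all genes by -0.10, the members were 13 higher and 17 lower, and 29.7% of all tested genes were higher and 35.9% lower. The shares of the 41 genes were thus near those of all genes under either scaling. Counts by role are a description, and differences between roles were not tested. Of the 15 processome genes, 8 were higher and 3 lower (median 0.30). The 5 late small-subunit genes gave 3 higher and 1 lower (median 0.34). In the other roles there were 2 higher and 7 lower of 15 large-subunit genes (median -0.06) and 2 higher and 4 lower of 6 box C/D and scaffold genes (median -0.24).

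The largest rise after SP1 siRNA was that of NOLC1, a nucleolar phosphoprotein that accompanies snoRNPs. It stood at 58.0 FPKM with SP1 siRNA, 23.5 with SP3 siRNA and 20.4 with both, against 26.7 and 28.0 FPKM in the controls. Only the SP1 siRNA library was above the controls, by 1.06 ± 0.07 (difference ± SE of limma on the log2(FPKM + 1) scale, adjusted p = 7.18e-09). NPM1, with the levels given above, was 0.85 ± 0.05 higher (adjusted p = 2.64e-09) and stood above both controls in all 3 knockdowns. DDX10, an RNA helicase of the processome, stood at 23.0 FPKM with SP1 siRNA, 11.3 with SP3 siRNA and 13.9 with both, against 13.0 and 12.5 FPKM in the controls, a rise of 0.80 ± 0.08 with SP1 siRNA (adjusted p = 6.41e-07). BOP1, which joins PES1 and WDR12 in a complex needed for the large subunit, stood at 102 FPKM with SP1 siRNA, 60.8 with SP3 siRNA and 72.4 with both, against 61.5 and 65.9 FPKM in the controls. Its rise with SP1 siRNA was 0.67 ± 0.07 (adjusted p = 3.36e-07), while PES1 of the same complex fell by 0.60 (adjusted p = 1.86e-05) and WDR12 was 0.19 ± 0.11 higher without passing (adjusted p = 0.121). RRS1, which brings a small rRNA into the large subunit, rose least of these, at 6.22 FPKM with SP1 siRNA against 4.26 and 3.61 FPKM in the controls (0.55 ± 0.12, adjusted p = 0.000664).

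TSR1, a factor of the late small subunit, showed the largest fall after SP1 siRNA. It stood at 12.7 FPKM with SP1 siRNA, 13.8 with SP3 siRNA and 8.85 with both, against 30.1 and 30.3 FPKM in the controls. All 3 knockdowns were far below both controls, and the level with SP1 siRNA was 42.0% of the control mean (95% exact counting interval 39.2 to 45.1%). Its difference was -1.19 ± 0.08 (adjusted p = 5.22e-09). RRP9, the protein that marks the U3 snoRNP in the processome, stood at 9.10 FPKM with SP1 siRNA, 16.5 with SP3 siRNA and 9.78 with both, against 15.3 and 18.1 FPKM in the controls. Both libraries that received SP1 siRNA were low and the SP3 siRNA library lay between the controls (SP1 siRNA -0.80 ± 0.10, adjusted p = 3.87e-06). GNL3, the nucleolar GTPase nucleostemin, stood at 46.6 FPKM with SP1 siRNA, 64.4 with SP3 siRNA and 47.6 with both, against 78.8 and 76.7 FPKM in the controls (SP1 siRNA -0.73 ± 0.06, adjusted p = 1.05e-07). DDX18, a helicase of large-subunit assembly, stood at 15.7 FPKM with SP1 siRNA, 14.9 with SP3 siRNA and 12.3 with both, against 26.7 and 25.4 FPKM in the controls, and was below both controls in every knockdown (SP1 siRNA -0.69 ± 0.08, adjusted p = 1.91e-06). RRP7A, a processome protein, stood at 2.62 FPKM with SP1 siRNA, 2.18 with SP3 siRNA and 1.94 with both, against 4.33 and 4.82 FPKM in the controls (SP1 siRNA -0.62 ± 0.12, adjusted p = 0.000311).

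A count that needs no variance estimate was smaller. Its folds are of FPKM + 1, which understates the change of low genes such as RRP7A. In the SP1 siRNA library 4 genes were at least 1.5-fold above each control (NOLC1, NPM1, DDX10 and BOP1; 13.8% of all tested genes were so) and 4 were at least 1.5-fold below each control (RRP9, TSR1, DDX18 and GNL3; 11% of all tested genes). An additive model, which gives each siRNA 1 effect and counts any departure from additivity as error, changes both the differences and their spread (NOLC1 with SP1 siRNA then had 0.52). In it only TSR1, RRP9, GNL3, DDX47 and NOP2 passed, all lower, among 7.67% of all genes tested, and none of the rises did. Without a filter on low values, 5 of the 41 were higher and 7 lower, where 14.3% and 10.1% of 17125 genes were.

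More of the genes were lower than higher with SP3 siRNA, although not when all genes without a filter on low values were fitted. Against the controls, 9 of the 41 were higher (22%), 18 were lower (43.9%) and 14 did not pass, where 29.6% of all tested genes were higher and 32.1% lower. The members' median difference was -0.15, against -0.02 for all tested genes. The share of lower genes was largest in the box C/D and scaffold role, with 1 higher and 4 lower of 6 (median -0.37). Large-subunit assembly followed, with 2 higher and 8 lower of 15 (median -0.25). The processome was divided, with 5 higher and 4 lower of 15 (median -0.01), and late small-subunit maturation had 1 higher and 2 lower of 5 (median -0.01).

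NIP7, a factor of precursor rRNA processing, rose most with SP3 siRNA. It stood at 5.98 FPKM with SP1 siRNA, 12.0 with SP3 siRNA and 7.84 with both, against 6.27 and 6.07 FPKM in the controls. The SP3 siRNA library was the highest and the SP1 siRNA library lay just below the controls (SP3 siRNA 0.86 ± 0.10, adjusted p = 1.79e-06). DDX47, a processome helicase, stood at 70.2 FPKM with SP1 siRNA, 174 with SP3 siRNA and 117 with both, against 98.4 and 103 FPKM in the controls. It was 0.78 ± 0.06 higher with SP3 siRNA (adjusted p = 3.68e-08) and lower with SP1 siRNA (-0.51 ± 0.06, adjusted p = 2.68e-06). DDX21 and NOP58 likewise passed as higher with SP3 siRNA and lower with SP1 siRNA, whereas NOLC1, HEATR1, NOP14 and LTV1 passed as lower with SP3 siRNA and higher with SP1 siRNA. UTP18, a processome protein with WD repeats, stood at 20.1 FPKM with SP1 siRNA, 23.9 with SP3 siRNA and 21.6 with both, against 14.6 and 15.5 FPKM in the controls, and was above both controls in every knockdown (SP3 siRNA 0.63 ± 0.08, adjusted p = 5.81e-06). The helicase DDX49 and the processome protein UTP6 were next, at 20.6 FPKM with SP3 siRNA against 13.1 and 14.2 FPKM in the controls for DDX49 (0.56 ± 0.08, adjusted p = 3.6e-05) and 18.9 FPKM against 12.9 and 13.0 FPKM for UTP6 (0.51 ± 0.08, adjusted p = 5.95e-05).

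TSR1 again fell most, with a difference of -1.07 ± 0.08 (adjusted p = 1.99e-08). NOP56, a core protein of box C/D snoRNPs, stood at 47.8 FPKM with SP1 siRNA, 28.7 with SP3 siRNA and 26.9 with both, against 56.6 and 53.7 FPKM in the controls. Both libraries that received SP3 siRNA were near 50% of the control mean, at 51.9% (95% exact counting interval 48.3 to 55.9%) with SP3 siRNA and 48.8% (45.2 to 52.8%) with both (SP3 siRNA -0.92 ± 0.07, adjusted p = 2.34e-08). Its partner NOP58 moved the other way with SP3 siRNA, at 25.9 FPKM against 22.7 and 18.9 FPKM in the controls (0.31 ± 0.09, adjusted p = 0.00956), and the methyltransferase of the same particle, FBL, was lower, at 182 FPKM against 287 and 274 FPKM (-0.62 ± 0.06, adjusted p = 2.28e-07). RRP7A fell by 0.81 (SE 0.12, adjusted p = 3.1e-05). RRP1B, a nucleolar protein of large-subunit assembly, stood at 9.41 FPKM with SP1 siRNA, 7.47 with SP3 siRNA and 8.16 with both, against 14.5 and 13.0 FPKM in the controls (SP3 siRNA -0.80 ± 0.09, adjusted p = 3.16e-06), and DDX18 fell by 0.77 (SE 0.08, adjusted p = 7.15e-07).

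At least 1.5-fold from each control on FPKM + 1 with SP3 siRNA were 3 genes above (UTP18, DDX47 and NIP7; 9.41% of all tested genes) and 5 below (NOP56, RRP7A, TSR1, RRP1B and DDX18; 12.4% of all tested genes). Without a filter, 4 of the 41 were higher and 4 lower, where 5.83% and 6.47% of 17125 genes were. In the additive model NOP56, TSR1, GNL2 and HEATR1 stayed lower and NIP7 and DDX47 higher, with 15.4% of all genes called.

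With both siRNAs the genes were mostly lower. Of the 41, 7 were higher than in the controls (17.1%), 23 were lower (56.1%) and 11 did not pass, where 31.9% of all tested genes were higher and 31.1% lower. The members' median difference was -0.33, against 0.01 for all tested genes. Each role had more lower than higher genes. These were 1 higher and 4 lower of 6 in the box C/D and scaffold role (median -0.38), 4 higher and 7 lower of 15 in the processome (median -0.13), none higher and 3 lower of 5 in late small-subunit maturation (median -0.35), and 2 higher and 9 lower of 15 in large-subunit assembly (median -0.41).

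TSR1 was at its lowest in the library with both siRNAs, at 29.3% of the control mean (95% exact counting interval 26.9 to 31.8%), a difference of -1.66 ± 0.08 (adjusted p = 1.69e-10). DDX18 fell by 1.03 (SE 0.08, adjusted p = 3.13e-08), NOP56 by 1.01 (SE 0.07, adjusted p = 8.44e-09) and RRP7A by 0.92 (SE 0.12, adjusted p = 7.84e-06). GNL2, a nucleolar GTPase of large-subunit assembly, stood at 45.9 FPKM with SP1 siRNA, 27.7 with SP3 siRNA and 24.1 with both, against 44.3 and 41.1 FPKM in the controls. It was low in the 2 libraries that received SP3 siRNA and above both controls in the SP1 siRNA library, where it did not pass (both siRNAs -0.80 ± 0.07, adjusted p = 1.69e-07). NOP2, an rRNA methyltransferase of the large subunit, was next, at 15.2 FPKM with both siRNAs against 26.6 and 26.1 FPKM in the controls (-0.76 ± 0.08, adjusted p = 4.91e-07).

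The 5 largest rises with both siRNAs were smaller than the falls. UTP18 was 0.49 ± 0.08 higher (adjusted p = 6.97e-05) and NPM1 0.34 ± 0.05 higher (adjusted p = 4.41e-05). NIP7 followed at 0.30 ± 0.10 (adjusted p = 0.0127), UTP6 at 0.27 ± 0.08 (adjusted p = 0.00867) and DDX49 at 0.23 ± 0.08 (adjusted p = 0.0239). At least 1.5-fold from each control on FPKM + 1 were 0 genes above (11% of all tested genes) and 10 below (NOP56, RRP7A, RRP9, LTV1, TSR1, NOP2, RRP1B, DDX18, GNL2 and GNL3; 12.4% of all tested genes). Without a filter, 1 was higher and 7 lower, where 9.51% and 8.92% of 17125 genes were. In the additive model 8 genes stayed lower (TSR1, DDX18, NOP56, RRP7A, NOP2, GNL2, GNL3 and RRP9) and none higher, with 16.8% of all genes called.

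**Figure D2:**
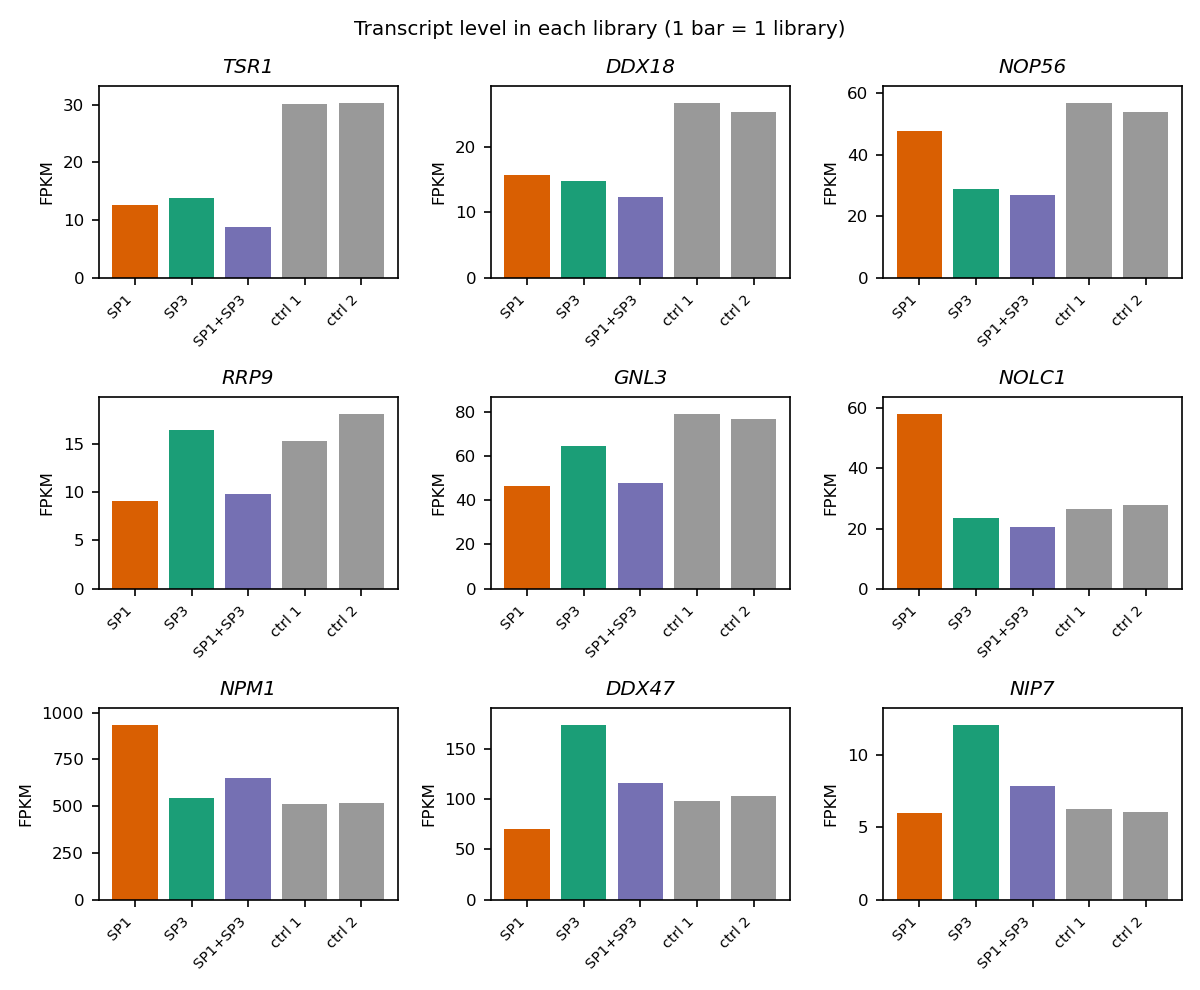
FPKM of 9 of the genes, 1 bar per library, on axes that start at 0, with SP1 siRNA, SP3 siRNA, both siRNAs and the 2 controls from left to right. TSR1 and DDX18 were below both controls in all 3 knockdowns, RRP9 was low in the 2 libraries that received SP1 siRNA, NOP56 was lowest in the 2 that received SP3 siRNA, and NOLC1 was high in the SP1 siRNA library alone.

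The 3 knockdowns share both control libraries, so their differences are not independent of each other. The SP3 siRNA library was therefore also set directly against the SP1 siRNA library, 1 library each, with the spread taken from the controls. Here 11 of the 41 genes were higher with SP3 siRNA (26.8%), 18 were lower (43.9%) and 12 did not pass, where 26.5% of all tested genes were higher and 36.2% lower. The members' median was -0.18, against -0.09 for all tested genes. DDX47 was 1.29 ± 0.07 higher (adjusted p = 9.32e-10), NIP7 0.90 ± 0.11 (adjusted p = 5.52e-06) and RRP9 0.79 ± 0.11 (adjusted p = 2.31e-05). NOLC1 fell by 1.27 (SE 0.08, adjusted p = 7.34e-09), and DDX10 by 0.97 (SE 0.10, adjusted p = 5.19e-07). HEATR1, a large scaffold of the processome that also aids transcription by RNA polymerase I, stood at 7.72 FPKM with SP3 siRNA and 16.1 FPKM with SP1 siRNA, on either side of the controls at 11.3 and 10.5 FPKM (-0.97 ± 0.10, adjusted p = 1.24e-06). By role the genes lower with SP3 siRNA were 5 of 6 in the box C/D and scaffold role, 6 of 15 in the processome, 2 of 5 in late small-subunit maturation and 5 of 15 in large-subunit assembly, and those higher were 1, 5, 0 and 5. The balance of higher and lower depended on the scaling. With median-ratio scaling, which shifted the median of all genes by 0.14, 13 of the 41 were higher and 12 lower, where 35% of all tested genes were higher and 27.7% lower. In the additive model only DDX47 and HEATR1 passed, with 10.9% of all genes called.

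**Figure D3:**
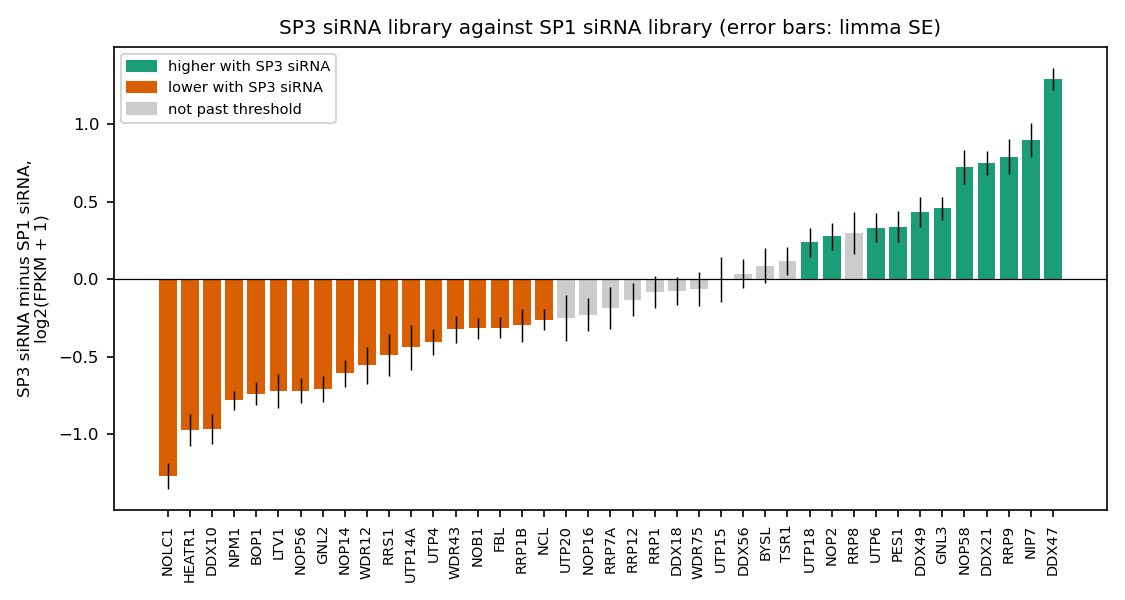
Difference of the SP3 siRNA library from the SP1 siRNA library for each of the 41 genes on the log2(FPKM + 1) scale, sorted, with error bars of 1 SE from limma and grey bars for genes that did not pass. The bars run from -1.27 for NOLC1 to 1.29 for DDX47.

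The library with both siRNAs had more of the genes lower than higher against SP1 siRNA alone, and all of these calls were lost without the filter on low values. With both siRNAs against SP1 siRNA alone, 3 genes were higher (7.32%), 20 were lower (48.8%) and 18 did not pass, where 21% of all tested genes were higher and 26.4% lower. The members' median was -0.28, against -0.05 for all tested genes. NOLC1 fell by 1.47 (SE 0.08, adjusted p = 5.34e-09) and GNL2 by 0.90 (SE 0.08, adjusted p = 7.27e-07). LTV1, which helps the small subunit leave the nucleus, stood at 5.37 FPKM with both siRNAs and 11.8 FPKM with SP1 siRNA, with the controls between at 9.11 and 8.59 FPKM (-1.01 ± 0.11, adjusted p = 3.8e-06). The 3 higher genes were DDX47 (0.72 ± 0.07, adjusted p = 1.13e-06), NIP7 (0.34 ± 0.11, adjusted p = 0.0201) and NOP58 (0.34 ± 0.11, adjusted p = 0.018). Late small-subunit maturation had 4 of 5 genes lower, the processome 7 of 15, the box C/D and scaffold role 3 of 6 and large-subunit assembly 6 of 15. With median-ratio scaling 4 of the 41 were higher and 17 lower (27.2% and 20.8% of all tested genes), and in the additive model 2 were higher and 4 lower (6.69% and 8.7% of all tested genes). Without a filter limma called 0 of the 41 and 0 of 17125 genes, with 17 of the 41 at an unadjusted p under 0.05.

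Against SP3 siRNA alone, the rises below held under neither another scaling nor the additive model. With both siRNAs against SP3 siRNA alone, 4 genes were higher (9.76%), 13 were lower (31.7%) and 24 did not pass, where 17.9% of all tested genes were higher and 15.1% lower. The members' median was -0.16, against 0.03 for all tested genes. DDX21, a nucleolar RNA helicase, stood at 32.1 FPKM with both siRNAs and 56.1 FPKM with SP3 siRNA alone, against 42.8 and 42.7 FPKM in the controls (-0.79 ± 0.08, adjusted p = 3.62e-06). RRP9 fell by 0.70 (SE 0.11, adjusted p = 0.000296) and TSR1 by 0.59 (SE 0.09, adjusted p = 0.000183). The largest rises were those of DDX10 (0.28 ± 0.10, adjusted p = 0.0327), NPM1 (0.27 ± 0.06, adjusted p = 0.00351) and FBL (0.26 ± 0.07, adjusted p = 0.00768). FBL had 218 FPKM with both siRNAs and 182 FPKM with SP3 siRNA, against 287 and 274 FPKM in the controls. In the additive model its difference was -0.07. With median-ratio scaling 0 of the 41 were higher and 18 lower (14.4% and 20% of all tested genes, with 22 of the 41 at an unadjusted p under 0.05), and in the additive model 0 were higher and 5 lower (3.68% and 3.99%). Without a filter limma called 0 of the 41 and 0 of 17125 genes, with 13 of the 41 at an unadjusted p under 0.05.

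The interaction, the difference with both siRNAs minus the sum of the differences with SP1 siRNA and SP3 siRNA alone, passed for 28 of the 41 genes. It was positive for 10 (24.4%) and negative for 18 (43.9%), where 18.5% of all tested genes were positive and 21% negative, and the members' median was -0.29 against -0.03 for all tested genes. Among the processome genes 2 were positive and 8 negative of 15 (median -0.39), and in late small-subunit maturation 1 was positive and 3 negative of 5 (median -0.48). The box C/D and scaffold role had 2 positive and 2 negative of 6, and large-subunit assembly 5 positive and 5 negative of 15. A difference from the controls shared by all knockdown libraries enters the interaction with its sign turned. The design cannot tell it apart from an interaction. The 10 positive genes were below the control mean in every knockdown, and the negative ones were mixed. The transcripts of the targets themselves had interactions of 0.43 (SP1) and 0.14 (SP3). NOLC1 had the lowest interaction, at -1.26 ± 0.11 (adjusted p = 7.12e-07), as it was 1.06 above the controls with SP1 siRNA and at -0.41 from them with both. WDR43, a processome protein, stood at 26.5 FPKM with SP1 siRNA, 20.9 with SP3 siRNA and 16.0 with both, against 20.8 and 19.9 FPKM in the controls (interaction -0.73 ± 0.12, adjusted p = 0.000197), and LTV1 had -0.66 ± 0.15 (adjusted p = 0.00233). Without a filter limma called no interaction among the 41 or among all 17125 genes, with 19 of the 41 at an unadjusted p under 0.05. The highest interactions were those of RRP1B (0.61 ± 0.14, adjusted p = 0.00362), TSR1 (0.60 ± 0.12, adjusted p = 0.00125) and FBL (0.56 ± 0.09, adjusted p = 0.000144), each of which fell less with both siRNAs than the sum of its falls with either.

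**Figure D4:**
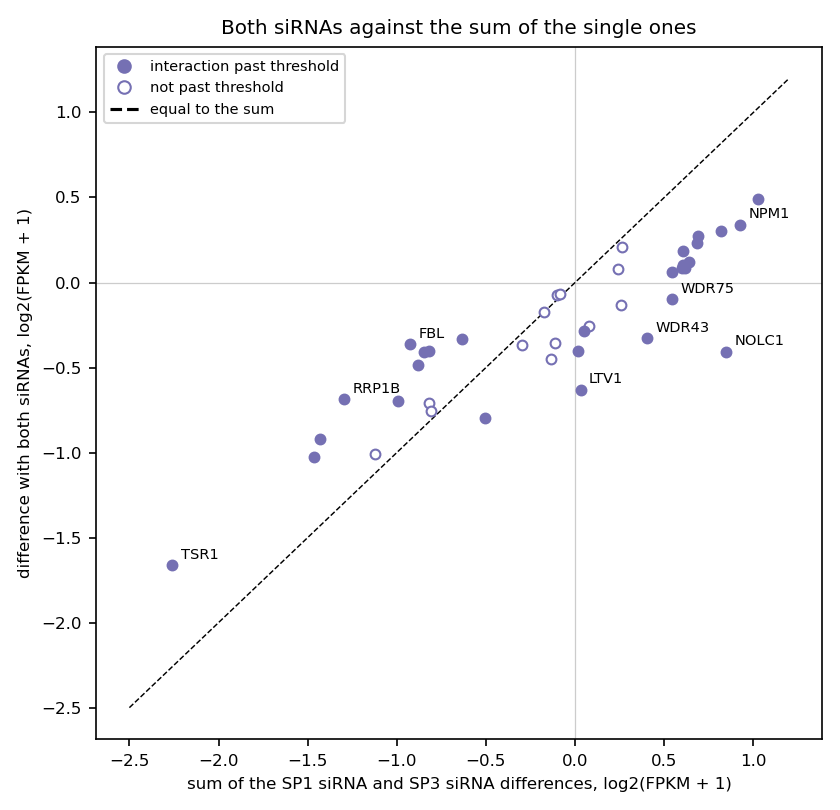
Difference from the controls with both siRNAs (vertical) against the sum of the differences with SP1 siRNA and SP3 siRNA (horizontal) for each of the 41 genes, both on the log2(FPKM + 1) scale, with the dashed line where they are equal and filled points where the interaction passed. TSR1 lies at the lower left, above the line, and NOLC1 lies farthest below the line, at -1.26.

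Of the 41 genes, 6 carry snoRNA genes in GENCODE 29 (NOP56, NOP58, NCL, WDR43, TSR1 and GNL3, with 23 snoRNA genes between them). After SP1 siRNA 1 of these 6 was higher and 5 were lower (median -0.35), against 14 higher and 10 lower of the other 35 (median 0.10). After SP3 siRNA 1 was higher and 4 were lower (median -0.40), against 8 higher and 14 lower (median -0.09). With both siRNAs 0 were higher and 5 lower (median -0.55), against 7 higher and 18 lower (median -0.25). Of all tested genes, 36.5% were higher and 28.8% lower after SP1 siRNA, 29.6% and 32.1% after SP3 siRNA, and 31.9% and 31.1% with both. The values of the hosts are counts and medians of 6 genes and were not tested.

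By promoter letters, the 24 genes with a GC box had 9 higher and 8 lower after SP1 siRNA, 4 higher and 12 lower after SP3 siRNA, and 2 higher and 17 lower with both siRNAs. The 9 genes with a window but no GC box had 2 higher and 4 lower, 3 higher and 3 lower, and 3 higher and 3 lower in the same order. Of the 13 genes with an E-box, 6 were higher and 4 lower after SP1 siRNA, 1 higher and 7 lower after SP3 siRNA, and 1 higher and 10 lower with both. The 20 without one had 5 higher and 8 lower, 6 higher and 8 lower, and 4 higher and 10 lower. In the same order, 36.5%, 29.6% and 31.9% of all tested genes were higher and 28.8%, 32.1% and 31.1% lower. The split by letters was not tested, and it was not made for genes outside the 41. MYC itself stood at 136 FPKM with SP1 siRNA, 44.1 with SP3 siRNA and 47.8 with both, against 91.9 and 85.8 FPKM in the controls, above both controls after SP1 siRNA and below them in the other 2 knockdowns. The part of MYC in the levels of the 41 genes was not tested.

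Another 108 genes of the same pathway were listed, of which 97 were in the tables and passed the minimum level. The 11 snoRNA host genes among them were not analysed here. After SP1 siRNA 41 of the 97 were higher (42.3%) and 25 lower (25.8%), after SP3 siRNA 35 higher (36.1%) and 28 lower (28.9%), and with both siRNAs 23 higher (23.7%) and 31 lower (32%). In the same order, 36.5%, 29.6% and 31.9% of all tested genes were higher and 28.8%, 32.1% and 31.1% lower. The share of the 97 lower with both siRNAs was thus near that of all tested genes, against 56.1% of the 41. The medians of the 97 were 0.08, 0.06 and 0.00, each above the median of the 41 genes in the same knockdown. Among 33 further small-subunit factors, 15 were higher and 6 lower after SP1 siRNA, led by the helicase DHX37 at 11.3 FPKM against 2.79 FPKM in each control (1.70 ± 0.10, adjusted p = 2.43e-09). IMP3, a protein of the U3 snoRNP, rose with SP3 siRNA to 158 FPKM and with both to 148 FPKM, against 74.5 and 68.4 FPKM in the controls (SP3 siRNA 1.14 ± 0.06, adjusted p = 1.42e-09), while the rRNA acetyltransferase NAT10 fell with SP3 siRNA, to 10.7 FPKM against 23.9 FPKM in each control (adjusted p = 1.27e-08).

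Among 32 further large-subunit factors, 17 were higher and 9 lower after SP1 siRNA, 15 and 11 after SP3 siRNA, and 10 and 10 with both. For these and the counts below, the shares of all tested genes are those given with the 97 genes. SBDS, which frees the large subunit of its anti-association factor, was 1.34 ± 0.07 higher with SP3 siRNA (adjusted p = 3.26e-10). That factor, EIF6, fell with SP1 siRNA, to 27.2 FPKM against 59.3 and 58.5 FPKM in the controls (-1.09 ± 0.06, adjusted p = 1.51e-09). The 4 core proteins of box H/ACA snoRNPs, which guide pseudouridylation, had 2 higher and 1 lower after either siRNA, and NOP10 among them was 1.17 ± 0.06 higher with SP3 siRNA (adjusted p = 2.44e-10). Of 14 exosome and trimming genes, 2 were higher and 6 lower after SP1 siRNA, 3 and 5 after SP3 siRNA, and 1 and 5 with both. Of the exosome subunits, EXOSC2 fell with SP3 siRNA (-1.13 ± 0.11, adjusted p = 2.78e-07) and EXOSC3 with SP1 siRNA (-0.83 ± 0.10, adjusted p = 2.8e-06), while EXOSC3 was higher with SP3 siRNA (0.42 ± 0.10, adjusted p = 0.00167). Of 14 RNA polymerase I genes, 5 were higher and 3 lower after SP1 siRNA, 4 and 3 after SP3 siRNA, and 3 and 5 with both. UBTF, which activates rDNA for RNA polymerase I, rose in all 3 knockdowns, at 13.1 FPKM with SP1 siRNA, 14.7 with SP3 siRNA and 15.1 with both, against 6.93 and 7.504 FPKM in the controls (both siRNAs 0.97 ± 0.09, adjusted p = 2.19e-07). The polymerase subunit POLR1C fell in all 3, most with both siRNAs (-0.93 ± 0.09, adjusted p = 2.12e-07).

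Some of the 41 levels are uncertain because reads can be shared. Pseudogenes named for the gene exist for 9 of the 41 in GENCODE 29, with 45 for NPM1, and the exons of 20 overlap another gene. Whether the libraries kept the strand is not stated, and without it reads of overlapping genes cannot be told apart. TSR1 overlaps SRR and SGSM2 on the other strand. SRR stood at 2.67 FPKM with SP1 siRNA, 0.619 with SP3 siRNA and 1.35 with both, against 0.808 and 0.919 FPKM in the controls. SGSM2 stood at 10.3, 7.74 and 6.75 FPKM in the knockdowns, against 12.4 and 11.3 FPKM in the controls, and so was lower than both controls in all 3, as was TSR1. NIP7 overlaps COG8, which stood at 7.94, 3.39 and 5.41 FPKM in the knockdowns in the same order, against 5.11 and 4.31 FPKM in the controls, and so was low in the SP3 siRNA library where NIP7 was high. GNL3 overlaps GLT8D1, which stood at 7.99, 12.4 and 8.56 FPKM in the knockdowns, against 12.0 and 11.4 FPKM in the controls, lowest in the same 2 libraries as GNL3.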

How the data were processed

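Per the labels, total RNA of HCT116 cells was extracted with Trizol and sequenced on Illumina libraries. For each library the authors deposited FPKM values by gene symbol. The submitters' processing notes name HTSeq 0.9.1, Cufflinks 2.2.1, HISAT2 2.0.5 and Trimmomatic 0.36 without saying what each did. Build, annotation and strandedness: not given in the sources used here.

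Groups came from the labels' genotype field and titles. The members, roles, lists and tests were chosen with earlier results of these data known. FPKM steps gave whole reads for 17122 of 17125 genes above 0 in any library (99.98%, tolerance 0.02 reads), and 1 of 500 jittered genes did so by chance. Their absolute scale rests on 90 single-transcript genes, a share of 0.156 of those examined, and is an estimate. The reads were used for depth and for 95% exact binomial intervals, which cover counting error only. With limma 3.58.1 in R 4.3.3, log2(FPKM + 1) was fitted with 1 mean per group over all 5 libraries. The 11728 genes that reached 1 FPKM in any library entered. The variance was moderated with a trend (1 residual and 13.98 prior degrees of freedom), so each single knockdown library was assumed to vary like the controls. Two-sided p-values were adjusted over all tested genes by Benjamini-Hochberg, with a threshold of 0.05. Folds on this scale understate the change of low genes. Full values are given for the 5 largest rises and falls in each comparison with the controls, for 3 genes each way elsewhere, and for some of up to 3 genes each way by smallest p per further pathway list. The 5 were taken among genes past the threshold that changed the same way against each control. Alternatives were a pseudocount of 0.1, no filter, a mean of at least 5 FPKM, median-ratio scaling, an additive model, a 2-fold limit and leaving out each control. A count model on the recovered reads was not run.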

Additional observations from a re-analysis of the deposited data

Results flagged for a closer look

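For 28 of the 41 genes limma's test of the interaction passed (difference with both siRNAs minus the sum of the single differences, log2(FPKM + 1) scale, adjusted p under 0.05). Of all tested genes, 18.5% had a positive and 21% a negative interaction. Without a filter on low values limma called none of the 41, with 19 of them at an unadjusted p under 0.05. Interactions were negative for NOLC1 (-1.26), WDR43 (-0.73), LTV1 (-0.66), WDR75 (-0.64), NPM1 (-0.59), UTP18 (-0.54), RRS1 (-0.53), DDX10 (-0.52), NIP7 (-0.52) and UTP20 (-0.51). They were also negative for NOB1 (-0.50), RRP12 (-0.48), DDX49 (-0.45), BOP1 (-0.43), DDX21 (-0.42), UTP6 (-0.42), NOP14 (-0.33) and GNL2 (-0.29). Positive interactions were those of RRP1B (0.61), TSR1 (0.60), FBL (0.56), RRP7A (0.51), DDX18 (0.44), PES1 (0.44), NCL (0.42), RRP1 (0.40), UTP4 (0.30) and GNL3 (0.30). Each rests on 1 library per knockdown, and a difference from the controls shared by all knockdown libraries cannot be told apart from an interaction.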

How the results depend on the processing

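Of 60 named pairs of gene and comparison, all kept their call with a pseudocount of 0.1, 57 with median-ratio scaling, 29 without a filter on low values and 24 of 54 in the additive model, where 29 fell short of the threshold and FBL reversed in both siRNAs against SP3 siRNA, to -0.0655. All 42 kept their direction without control 1 or control 2, where the group-mean model allows no test. For the members named in the comparisons with the controls this was fixed in advance. They were chosen for changing the same way against each control.

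Without a filter (17125 genes), the members higher and lower were 5 and 7 with SP1 siRNA, 4 and 4 with SP3 siRNA, 1 and 7 with both, 4 and 5 in SP3 siRNA against SP1 siRNA, and 0 and 0 in both siRNAs against SP1 siRNA, in both siRNAs against SP3 siRNA and in the interaction. Of all 17125 genes, 24.4%, 12.3%, 18.4%, 15.4% and, in the last 3, 0% were called. In the additive model they were 0 and 5, 2 and 4, 0 and 8, and 1 and 1 in the same comparisons up to SP3 siRNA against SP1 siRNA. There, adding SP3 siRNA lowered 4 members and raised 2, and adding SP1 siRNA lowered 5 and raised 0, as the model gives each siRNA 1 effect. Leaving out either control as well left 1 control library, and calls became fewer among the 41 genes and among all genes. The members' medians in the additive model without control 1 were -0.05 with SP1 siRNA, -0.23 with SP3 siRNA and -0.28 with both. Without control 2 they were -0.07, -0.25 and -0.35. In the group-mean model the medians were -0.02, -0.14 and -0.28 without control 1, and -0.03, -0.17 and -0.35 without control 2. The additive medians were -0.24 with SP3 siRNA (-0.25 to -0.23 without a control), -0.23 with both and -0.0655 for both siRNAs against SP3 siRNA.

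Median-ratio scaling moved the median with SP1 siRNA to -0.11, of SP3 siRNA against SP1 siRNA to -0.0648, and of both siRNAs to -0.18 against SP1 siRNA and -0.22 against SP3 siRNA, where 0 members were then higher. It raised the members 1.5-fold lower with SP1 siRNA to 7. A pseudocount of 0.1 gave medians of -0.25 for SP3 siRNA against SP1 siRNA and -0.33 for both siRNAs against SP1 siRNA, and a mean of at least 5 FPKM (35 members) gave -0.13 for SP3 siRNA against SP1 siRNA. The interaction median was -0.30 without control 1 and -0.24 without control 2. At 2-fold on FPKM + 1, 1 member was higher and 1 lower with SP1 siRNA, 0 and 1 with SP3 siRNA, and 1 lower with both. The share of all genes at 2-fold was not counted. The cause of these moves was not tested. With 1 library per knockdown, sampling and culture differences within a knockdown cannot be told apart from its effect.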
